A study of Mus musculus with 61 samples.

Results

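Transcripts of the type A receptor for γ-aminobutyric acid (GABA) were followed through every fraction of the brain for 8 of its subunit genes, Gabra2, Gabra3, Gabra4, Gabra5, Gabra6, Gabrb1, Gabrb2 and Gabrd. The genes were chosen by name, with earlier results of these data known, and each was read from the probe whose RefSeq accession carries its symbol. They are 8 of the 16355 genes that the array names through RefSeq. Gabra3 and Gabra5 had 2 such probes, of which the one with the higher mean signal was used, and the other 6 genes had 1 probe. On each of the 61 arrays all 8 probes were well above background and none was saturated.

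GABA-A receptors are chloride channels that open when GABA, the main inhibitory transmitter of the brain, binds between an α and a β subunit. A receptor is a ring of subunits from several families, and the α subunit largely sets where on the neuron the receptor lies and how sensitive it is. Receptors with α2 or α3 and a γ subunit lie mostly at synapses and bind benzodiazepines. Receptors with α4 or α6 and the δ subunit lie outside synapses and carry tonic inhibition, and α5 receptors are also largely extrasynaptic and are known from the hippocampus. The α6 subunit is the best known of them as a marker of granule cells of the cerebellum.

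The brains were those of 6 mice, all C57BL/6J males aged 8 weeks, and the labels name no treatment or altered gene. Each brain was cut along 1 plane into fractions of 1 mm, and each fraction gave 1 array. The sagittal series are S (9 fractions) and So (10), the coronal series C (13) and Co (16), and the horizontal series H (6) and Ho (7), where So, Co and Ho were cut at a slightly oblique angle. S fractions carry the numbers of the labels, 2 to 10, which run from left to right. C1 is the most caudal and C13 the most rostral fraction, and H1 the most dorsal and H6 the most ventral. A fraction holds all regions of its slice, so that fewer cells of a type and less RNA per cell cannot be told apart, and each series is 1 mouse. The study lists 28 pairs of fractions, 1 from each mouse of a plane, which it chose by their correlation over all probes on these arrays. They are called c1 to c13, h1 to h6 and s1 to s9 here, and served as replicates. Fractions Ho1, So1, Co1, Co13 and Co16 were left without a partner. The tests thus measure a change along an axis against the spread within pairs, pooled over the 28 pairs of all planes. It is not the spread of the 2 mice of a plane alone. Because the pairs were chosen for their likeness on these same arrays, this spread, and with it every p-value, may be too small. Unless a block is named, the tests along an axis also took the arrays of 1 mouse as independent. Deviations of arrays of the same mice were correlated, with a median of 0.278, so that these p-values are approximate.

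A level is the log2 intensity of a probe minus the 75th percentile of its array, so that a level of 0 is as bright as that percentile. Levels depend on the probe, and those of different genes were not compared. The 75th percentile lay between 739.7 and 1971 intensity units on the 61 arrays, and between 57.9% and 73.1% of the probes were well above background. The arrays lay on 16 slides of up to 4 arrays, mostly with neighbouring fractions together, and were scanned on 5 days. C1 to C4 filled 1 slide, Co5 to Co8 another and C9 to C12 another. C13 lay on a slide with H1 and H2 and was scanned on their day, another than that of C1 to C12. Co was scanned on another day than C, So on another day than S except for S2, and H and Ho on the same day. The number of arrays limits the precision. In the marker lists, the 5 genes of neurons in general were well above background on all 61 arrays. By summed level, markers of the medulla and pons were highest in C1 and Co2, and those of cerebellar granule cells in C3 and Co5. Those of striatal medium spiny neurons were highest in C9 and Co11, and those of the olfactory bulb in C13 and Co15.

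On GRCm38.p6, the 8 genes lie in 5 places. Gabra2 (chr5:70958392-71095849), Gabra4 (chr5:71569734-71658308) and Gabrb1 (chr5:71657921-72149572) are neighbours on chromosome 5, and the annotated bodies of the last pair overlap at their starts. Gabra6 (chr11:42306437-42321072) and Gabrb2 (chr11:42419515-42632591) are neighbours on chromosome 11. Gabra5 (chr7:57407669-57591016) lies on chromosome 7, Gabra3 (chrX:72432676-72656919) on the X chromosome and Gabrd (chr4:155384979-155398098) on chromosome 4.

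The 250 bases before the transcription start are shown for 3 members whose RefSeq window lies outside the annotated gene body, Gabra6 with the widest range of levels among the members, Gabra3 with its minimum in the cerebellar fractions, and Gabra2 with the narrowest range. All run 5′ to 3′ on the strand of the gene. Capitals mark matches to 6 searched motifs. These were a TATA box (TATAAA), an inverted Y box (CCAAT), a GC box (GGGCGG), a cAMP response motif (TGACGT), an E box (CACGTG) and a site of nuclear factor I (TTGGC). Both strands were searched, so that a match on the other strand appears as its reverse complement, and the second and the last motif can overlap there.
Gabra6: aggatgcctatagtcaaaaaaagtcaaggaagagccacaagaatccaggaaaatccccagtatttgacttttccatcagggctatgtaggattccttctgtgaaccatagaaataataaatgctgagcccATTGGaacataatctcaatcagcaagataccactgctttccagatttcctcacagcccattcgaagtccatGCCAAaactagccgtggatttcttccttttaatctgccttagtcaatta
Gabra3: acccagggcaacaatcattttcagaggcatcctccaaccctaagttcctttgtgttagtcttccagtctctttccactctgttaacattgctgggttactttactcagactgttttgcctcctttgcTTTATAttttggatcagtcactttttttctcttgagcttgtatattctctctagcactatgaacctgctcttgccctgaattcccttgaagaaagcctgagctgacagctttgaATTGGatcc
Gabra2: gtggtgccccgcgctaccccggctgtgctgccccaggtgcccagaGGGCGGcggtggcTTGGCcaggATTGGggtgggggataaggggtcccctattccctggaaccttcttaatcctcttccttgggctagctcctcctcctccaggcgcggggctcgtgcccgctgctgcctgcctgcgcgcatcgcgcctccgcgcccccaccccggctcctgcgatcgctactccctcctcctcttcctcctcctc
These windows are chr11:42321073-42321322, chrX:72656920-72657169 and chr5:71095850-71096099, all on the minus strand. The window of Gabra6 had a GC content of 40.8% and 2 CpG dinucleotides, that of Gabra3 42.4% and 0, and that of Gabra2 70% and 18. Over 32851 such windows the median GC content was 52.4%, with 6 CpG. Gabra6 held the inverted Y box and the nuclear factor I site, Gabra3 the TATA and the inverted Y box, and Gabra2 the inverted Y box, the GC box and the nuclear factor I site. Of all windows, 12.4% held the TATA box, 33.9% the inverted Y box, 32.7% the GC box, 6.47% the cAMP response motif, 6.02% the E box and 41.5% the nuclear factor I site. A match describes the letters and is not a binding site. RefSeq windows were found for 7 members, 11 windows in all.

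Over the 28 pairs, all 8 subunits varied at an adjusted p under 0.05, where 61.3% of the 36573 detected probes did (limma's moderated F test, Benjamini-Hochberg adjustment over all detected probes). Gabra4 had the largest F among the members, 30.2 (adjusted p = 2.96e-13 by limma), followed by Gabra6 with 29.1 (4.58e-13), Gabra3 with 17.3, Gabra5 with 17.0 and Gabrb1 with 14.0. Gabrd had 8.00, or 20.6 without Co2, Gabrb2 3.69 and Gabra2 2.11 (adjusted p = 0.0411 by limma), against a median F of 2.58 over all detected probes. The ranking by F is not the ranking by range. From its dimmest to its brightest fraction, Gabra6 spanned 8.99 on the log2 scale, which is 507.5-fold, Gabra5 3.47, Gabrd 3.37, Gabrb2 2.89, Gabra4 2.72, Gabra3 2.36, Gabrb1 1.44 and Gabra2 1.38, where the median span of the detected probes was 2.13. Gabrb1 thus had a narrow range, but the SD between the mice of a pair was also small, 0.13 against a median of 0.30 over the detected probes. For Gabra6 this SD was 0.73. Gabra2 was no longer called in 28 of the 56 fits that leave out 1 array, over which its F lay between 1.91 and 2.70, nor without mouse C, Co, H, S or So (adjusted p = 0.0559 to 0.350 by limma).

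Along the caudal-rostral axis, 7 of 8 subunits varied among c1 to c13, where 47.1% of all detected probes did, and the exception was Gabra2 (F = 2.32, adjusted p = 0.0630 by limma). With the mouse as a replicate block Gabra2 was called as well (adjusted p = 0.000899 by limma). It was also called with slide as a fixed or random block (0.00157 and 0.000415), scan day as a block (0.0347) and median scaling (0.0494). Its call thus depends on the setting. The comparison of c1 to c4, the pairs of the hindbrain and cerebellum by their markers, with c5 to c13 had members on both sides. Gabra6 and Gabrd, the partners in granule cell receptors, were higher in the caudal pairs, where 31% of all detected probes were. Gabra3, Gabra4, Gabra5, Gabrb1 and Gabrb2 were lower, where 20.6% of all detected probes were, and Gabra2 was not called. The median of all detected probes in this comparison was 0.13, and scaling each array to its median shifted it by −0.12. Less that median, the differences were 6.16 for Gabra6, 0.34 for Gabrd, −1.78 for Gabra4, −1.46 for Gabra5, −1.24 for Gabra3, −0.84 for Gabrb1 and −0.62 for Gabrb2. Of the probes called, 60.1% were higher in the caudal pairs, or 44.7% with that scaling. None of the called members changed direction with that scaling, with the authors' table or with normexp and quantile normalization.

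**Figure D1:**
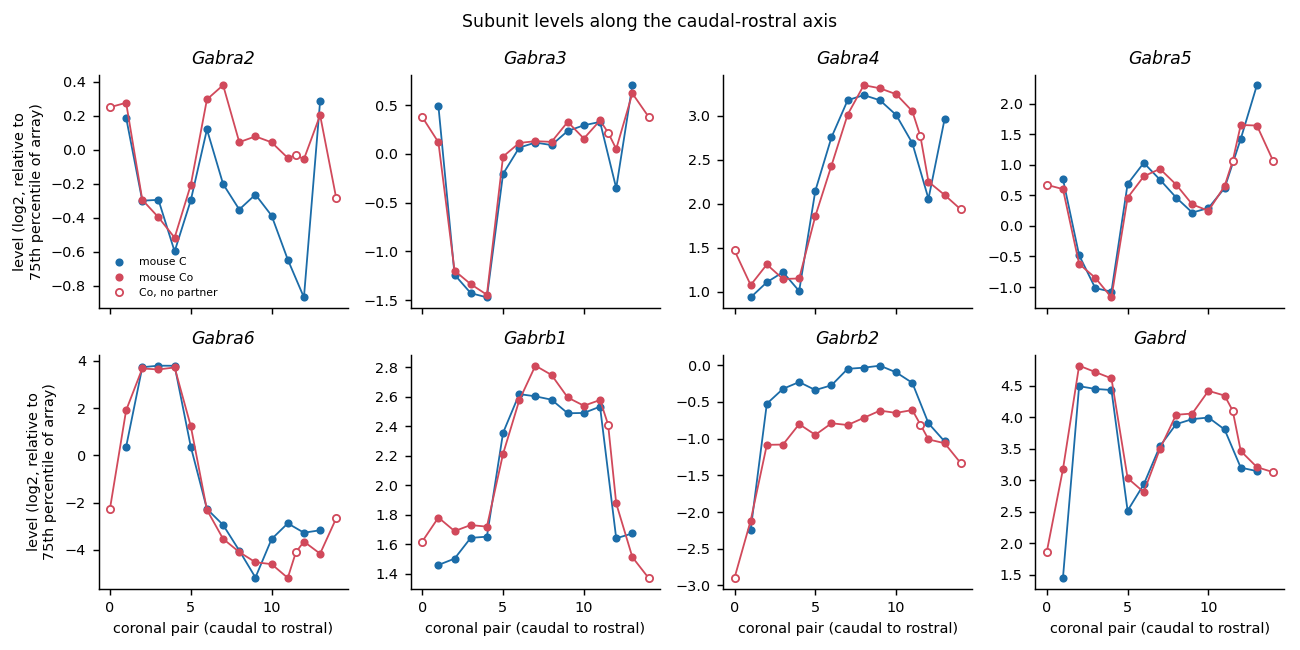
Level of each of the 8 subunits (log2 relative to the 75th percentile of the array, own scale per panel) against the coronal pair, from caudal to rostral. Blue points are mouse C, red points mouse Co, and open points Co fractions without a partner. Gabra6 falls from 3.79 in C3 to −5.18 in C9, while Gabra3, Gabra4, Gabra5 and Gabrb1 are low in c2 to c4 and step up at c5.

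Gabra6 encodes the α6 subunit. In the C series its levels ran from −5.18 in C9 through a median of −2.88 to 3.79 in C3, and in the Co series from −5.19 in Co12 through −3.10 to 3.72 in Co5. The 6 fractions of c2 to c4 lay between 3.63 and 3.79, a plateau with little spread. The most caudal fractions were well below it, with 0.36 in C1, 1.90 in Co2 and −2.27 in the unpaired Co1. Forward of the plateau the level fell by 2.96 on the log2 scale from c4 to c5 and by 3.09 from c5 to c6 (adjusted p = 0.0267 and 0.0182 by limma). Leaving out any 1 of C4, Co5, C5 and Co6 ended the call of the first step (0.0502 to 0.261), and any of Co6, C6 and Co7 that of the second (0.0924 to 0.200). The means of the caudal and the other pairs were 3.08 and −3.21, a difference of 6.29 ± 0.30 (SE) or 78.1-fold (adjusted p = 2.39e-17 by limma). The arrays of the 2 groups overlapped at their edges, since C5 had 0.36 and Co6 1.23. Co5 and Co6, which lay on 1 slide, had 3.72 and 1.23.

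In the caudal comparison the granule cell markers moved with Gabra6. All 4 markers with a probe were higher in the caudal pairs, and their summed level, in units of the 75th percentile, was 9.14 to 51.1 in the arrays of c1 to c4 and 2.03 to 12.3 in those of c5 to c13. Across the 61 fractions, the correlation of that sum with Gabra6 was 0.889. In c12 and c13 the sum was 5.76 to 11.45, while Gabra6 had −4.17 to −3.175. Against c5 to c11, 1 of these markers was called higher there and 2 lower. The sum follows mostly Zic1, whose mean signal was 17790 intensity units, against 1020 for Cbln3, 687 for Neurod1 and 551 for Barhl1. The markers of Purkinje cells, the output neurons of the cerebellar cortex, were all 5 higher in the caudal pairs too, as were all 5 of oligodendrocytes and all 4 of astrocytes. Their part in the differences of the subunits was not tested.

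Gabrd encodes the δ subunit of extrasynaptic receptors. Its levels in C ran from 1.45 in C1 through a median of 3.80 to 4.49 in C2, and in Co from 1.86 in Co1 through 3.77 to 4.82 in Co3. It had 2 high stretches, c2 to c4 with 4.43 to 4.82, and a broad rise toward c10 with 3.99 in C10 and 4.42 in Co11. Between them, C5 and Co7 were low with 2.52 and 2.81. The step from c1 to c2 was 2.34 (adjusted p = 5.77e-06 by limma), or 1.48 without C1, and that from c4 to c5 was −1.75 (0.000444). C1 and C2, on the same slide, had 1.45 and 4.49. Over c1 to c4 against c5 to c13, Gabrd was higher by 0.47 ± 0.12 (adjusted p = 0.00176 by limma), or by 0.25 without Co2. Without pair c1, where the medulla markers peak, this difference was 1.04 (adjusted p = 1.27e-07 by limma), and a fixed slide block gave 0.24 (0.825). Leaving out c1, here and below, was chosen after seeing the data. The linear slope did not pass the test (−0.0046 ± 0.015 per pair), and without c1 it was −0.069 (adjusted p = 0.00127 by limma), or −0.033 without C1 alone (0.0116). In c12 and c13 Gabrd differed from c5 to c11 by −0.38 ± 0.16 (adjusted p = 0.0667 by limma), and was called with the mouse as a replicate block (0.0270).

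Gabra4 encodes α4, the partner of δ in forebrain receptors outside synapses. Its levels in C ran from 0.93 in C1 through a median of 2.69 to 3.23 in C8, and in Co from 1.07 in Co2 through 2.17 to 3.35 in Co9. In contrast to Gabrd, it had no maximum in c2 to c4. All 8 arrays of c1 to c4 lay between 0.93 and 1.31 and all 18 of c5 to c13 between 1.86 and 3.35, so that the groups did not overlap. Gabra4 was the only member with this property, which 3.36% of the detected probes had in this direction and 2.03% in the other. The difference was −1.65 ± 0.084 (adjusted p = 8.66e-17 by limma), 3.13-fold lower in the caudal pairs. From c1 to c13 the level rose by 0.16 ± 0.010 per pair (adjusted p = 1.87e-14 by limma). In the 2 most rostral pairs it was lower than in c5 to c11 by 0.55 ± 0.11 (adjusted p = 0.000181 by limma). Without Co15 this difference was −0.33, and without C13 −0.76. The mice were unlike there, with 2.96 in C13 and 2.10 in Co15. C13 also differed from the other C fractions in slide and scan day. The summed level of the 5 markers of neurons in general was 129 to 147 in the arrays of c1 to c4 and 141 to 193 in those of c5 to c13, with 2 of 5 higher and 2 lower in the caudal pairs, and their part in the difference of Gabra4 was not tested.

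Gabrb1 encodes β1, a subunit that provides part of the GABA binding site. Its levels ran from 1.46 in C1 through 2.36 to 2.62 in C6, and from 1.37 in Co16 through 2.05 to 2.81 in Co8. Both ends of the axis were low and the middle was high. The caudal pairs were lower by 0.71 ± 0.059 (adjusted p = 9.06e-12 by limma), with 1.46 to 1.78 against 1.51 to 2.81 in c5 to c13. The rostral pairs c12 and c13 were lower than c5 to c11 by 0.88 ± 0.078 (adjusted p = 1.19e-10 by limma). Their 4 arrays, 1.51 to 1.88, did not overlap with the 14 arrays of c5 to c11, 2.21 to 2.81, which held for 7.0% of the detected probes in this direction. Within 1 slide, C11 and C12 had 2.53 and 1.64.

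Gabra5 encodes α5. Its levels ran from −1.08 in C4 through a median of 0.62 to 2.30 in C13, and from −1.17 in Co5 through 0.66 to 1.65 in Co14. The minimum was in the cerebellar pairs and the maximum in the olfactory bulb pairs. It was lower in the caudal pairs by 1.33 ± 0.090 (adjusted p = 8.08e-14 by limma), although C1 and Co2, with 0.77 and 0.60, were as high as c5. It was higher in c12 and c13 than in c5 to c11 by 1.17 ± 0.12, or 2.25-fold (adjusted p = 1.92e-09 by limma). A fixed slide block gave 0.74 (adjusted p = 0.0303 by limma). The 4 arrays of these rostral pairs, 1.43 to 2.30, lay above all 14 of c5 to c11, 0.22 to 1.03, which held for 6.99% of the detected probes in this direction. The other Gabra5 probe gave −1.63 for the caudal and 1.07 for the rostral comparison. All 5 olfactory bulb markers were higher in c12 and c13, with a summed level of 63.5 to 92.7 against 0.47 to 5.84 in c5 to c11, and their part in this difference was not tested.

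Gabra3 encodes α3, known from monoaminergic neurons and the reticular nucleus of the thalamus. Its levels ran from −1.47 in C4 through 0.090 to 0.70 in C13, and from −1.45 in Co5 through 0.13 to 0.62 in Co15. The 6 arrays of c2 to c4 were the lowest of all 61, from −1.47 to −1.20. C1 and Co2 had 0.49 and 0.12, and the step from c1 to c2 was −1.53 (adjusted p = 1.62e-06 by limma). The caudal pairs were lower by 1.11 ± 0.074 (adjusted p = 5.34e-14 by limma), and the difference was −1.53 without c1. The second, dimmer Gabra3 probe gave −0.72 (adjusted p = 2.68e-05 by limma). In c12 and c13 Gabra3 differed from c5 to c11 by 0.11 ± 0.098, which did not pass the test (adjusted p = 0.437 by limma).

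Gabrb2 encodes β2, a widespread β subunit of synaptic receptors. Its levels ran from −2.24 in C1 through −0.27 to −0.0069 in C9, and from −2.90 in Co1 through −0.88 to −0.61 in Co12. Of the C fractions, C1 was far below the others, which lay between −1.04 and −0.0069. All 5 medulla markers were higher in the caudal pairs, with a summed level of 2.06 to 14.8 in c1 to c4 against 0.0368 to 1.29, highest in C1 and Co2, and their part here was not tested. It was lower in the caudal pairs by 0.49 ± 0.12 (adjusted p = 0.00127 by limma), but without pair c1 the difference was −0.11 (adjusted p = 0.517 by limma), while the slide as a fixed block gave −0.57 (0.263). Its slope of 0.047 ± 0.015 per pair was called (adjusted p = 0.0106 by limma), and without c1 it was −0.0063 (0.811). The rostral pairs were lower than c5 to c11 by 0.53 ± 0.16 (adjusted p = 0.00953 by limma), but −0.48 without Co14 (0.0595), −0.30 without mouse C (0.134) and −0.57 with a fixed slide block (0.152).

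Gabra2 encodes α2, the synaptic α subunit of many forebrain neurons. Its levels ran from −0.87 in C12 through −0.30 to 0.29 in C13, and from −0.52 in Co5 through 0.0060 to 0.38 in Co8. The correlation between C and Co over the 13 pairs was 0.563, whereas it was 0.850 to 0.972 for the other members. Neither the caudal difference, −0.14 ± 0.11, nor the rostral, −0.0062 ± 0.14, passed the test (adjusted p = 0.283 and 0.980 by limma). Without pair c1 the caudal difference was −0.30 and was called (adjusted p = 0.0371 by limma).

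Of the 25 steps between neighbouring pairs, tested for 8 members, 15 of 200 were called, where 1.27% of all steps of all detected probes were. From c4 to c5, the front edge of the cerebellar markers, 6 members changed, Gabra3, Gabra4, Gabra5 and Gabrb1 upward and Gabra6 and Gabrd downward, and 7.68% of the detected probes were called at this step. From c1 to c2 there were 4, with 4.13% of the detected probes, and from c11 to c12 there were 2, Gabra5 by 0.90 and Gabrb1 by −0.80, with 8.53%. Between c6 and c11 no member changed at a single step. Besides those of Gabra6, 5 called steps were lost without 1 of their own arrays, Gabra4 and Gabrb1 from c4 to c5, Gabrb2 from c1 to c2, Gabra5 from c11 to c12 and Gabra3 from c12 to c13 (adjusted p = 0.0717 to 0.231 by limma). At the step from c12 to c13, C12 and C13 also differed in slide and scan day. Slopes from caudal to rostral were upward for Gabra3, Gabra4, Gabra5, Gabrb1 and Gabrb2, where 19.9% of the detected probes were called, and downward for Gabra6 alone, −0.73 ± 0.037 per pair, where 26% were. When the slide was a fixed block, only Gabra4 (0.11, adjusted p = 0.0405 by limma) and Gabra6 (−0.76, adjusted p = 0.0201) kept a called slope. Those of Gabra5 (0.11), Gabra3 (0.089) and Gabrb2 (0.058) were then not called, and that of Gabrb1 was 0.015 (adjusted p = 0.0928, 0.115, 0.518 and 0.834 by limma). Of all probes with a called slope 43.4% rose toward the front, or 59% with scaling to the median. For the comparison of c12 and c13, 18.5% of the detected probes were higher and 20.4% lower, against 1 and 3 of 8 members.

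**Figure D2:**
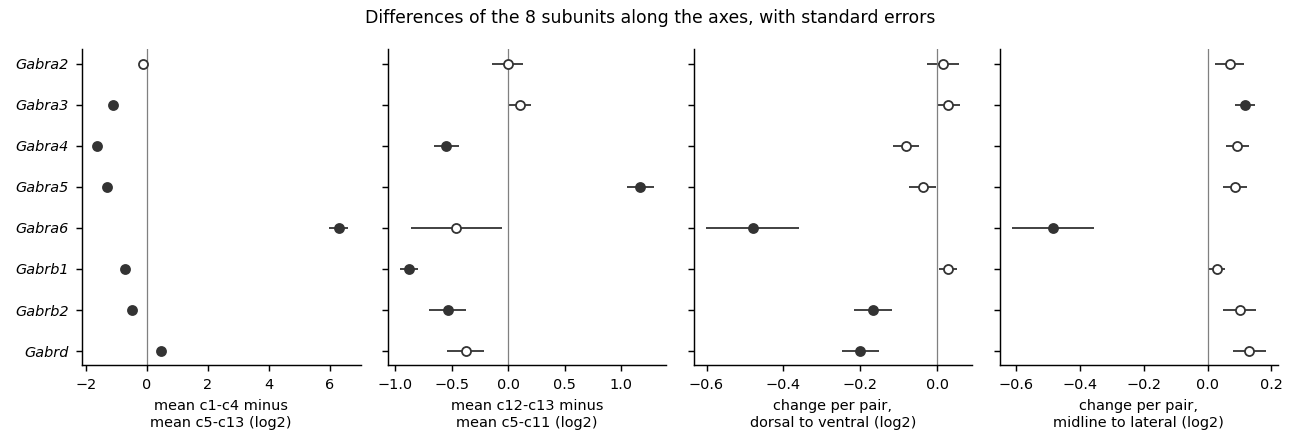
Differences of the 8 subunits on the log2 scale with standard errors from limma. The panels show c1 to c4 minus c5 to c13, c12 and c13 minus c5 to c11, the change per horizontal pair from dorsal to ventral and the change per sagittal pair from the midline outward, and filled points passed an adjusted p of 0.05. Gabra6 is at 6.29 in the caudal panel, and Gabra5 and Gabrb1 lie on opposite sides of 0 in the rostral one.

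In the horizontal plane, Gabra6 and Gabrd differed among h1 to h6 (F = 5.82 and 5.04, adjusted p = 0.0102 and 0.0204 by limma), as 12% of the detected probes did. Of the 6 pairs, both had their lowest mean in h5. Without H5 neither was called, and without Ho6 only Gabra6 was. When the slide was a fixed block neither was called (adjusted p = 0.113 and 0.187 by limma), while Gabra2 (0.0497) and Gabra5 (0.0312) were. Gabra6 ran from −1.74 in H5 through a median of 0.64 to 2.39 in H2, and from −2.14 in the unpaired Ho1 through 1.09 to 2.42 in Ho3. Its slope from dorsal to ventral was −0.48 ± 0.12 per pair (adjusted p = 0.00512 by limma), and −0.39 without Ho2 (0.0700) or −0.40 without H6 (0.0609). The most dorsal fractions were not the highest, and the unpaired Ho1 had the lowest level of this plane. All 4 granule cell and all 5 Purkinje cell markers fell toward the ventral side, as did all 6 of the cerebral cortex. The summed level of the granule cell set, mostly Zic1, was highest in H3 and Ho4, and that of the Purkinje cell set in H2 and Ho3. Taken singly, Cbln3, Barhl1 and Neurod1 were highest in H2 and Ho3, as Gabra6 was. The part of the markers in these slopes was not tested.

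Gabrd ran from 2.96 in H5 through 3.97 to 4.26 in H2, and from 3.21 in Ho6 through 4.05 to 4.42 in Ho1. It fell by 0.20 per pair (SE 0.049, adjusted p = 0.00389 by limma). In Ho1 it had the highest level of the Ho series, while Gabra6 had its lowest. Gabrb2 ran from −1.23 in H5 through −0.85 to −0.47 in H2, and from −1.66 in Ho7 through −1.02 to −0.71 in Ho2. It fell by 0.17 per pair (SE 0.049, adjusted p = 0.0174 by limma), and was not called without H1, H2 or Ho7 (0.0547 to 0.201). Its overall variation among h1 to h6 was not called (adjusted p = 0.261), but was with the mouse as a replicate block (0.00300 by limma).

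**Figure D3:**
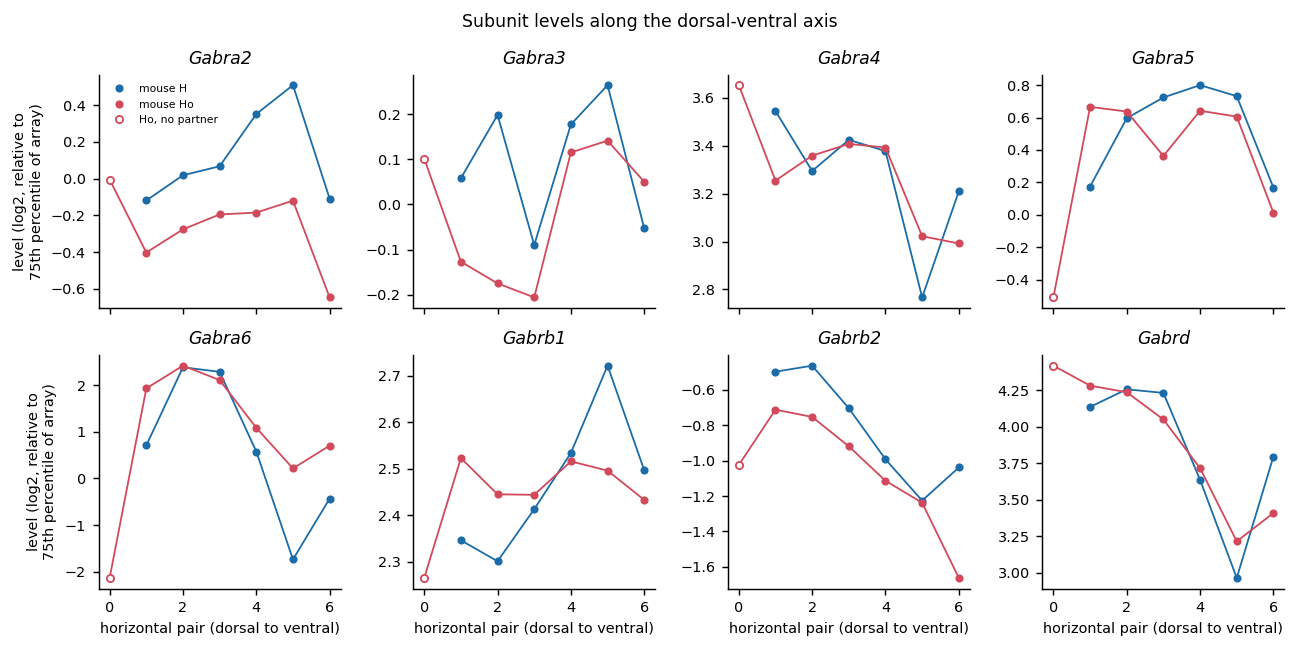
Level of each subunit (log2 relative to the 75th percentile of the array, own scale per panel) against the horizontal pair, from dorsal to ventral. Blue points are mouse H, red points mouse Ho, and the open point is Ho1 without a partner. Gabra6, Gabrb2 and Gabrd decline toward the ventral pairs, and Gabra2 is lower in Ho than in H in all 6 pairs.

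None of the 8 rose toward the ventral side, where 9.01% of the detected probes did, and 3 fell, where 6.13% did. Of all probes called, 59.5% rose, or 42.9% with scaling to the median. For Gabra4 the slope was −0.081 ± 0.033 (adjusted p = 0.111 by limma), and −0.10 with that scaling (0.0397). The slopes of the other 4 members lay between −0.037 and 0.029. With the slide as a block, where H3 to H6 and Ho1 to Ho4 each lay on 1 slide, the 3 slopes were −0.75 for Gabra6, −0.25 for Gabrd and −0.16 for Gabrb2 and were not called (adjusted p = 0.190 to 0.229 by limma). Without mouse H they were −0.39, −0.22 and −0.18 and were not called either (0.0915 to 0.219), and without Ho only Gabra6 was called, while Gabrd had −0.18 and Gabrb2 −0.15. Lone arrays then stand for the plane and are assumed to vary like the others.

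Across the sagittal fractions, Gabra6 (F = 7.13, adjusted p = 0.000769 by limma) and Gabra3 (F = 4.88, adjusted p = 0.00920) varied among s1 to s9, as 11.1% of the detected probes did. The second, dimmer Gabra3 probe gave an F of 1.78 and was not called (adjusted p = 0.4445 by limma). Without S2 only Gabra6 was called, and without So2 only Gabra3. Without mouse C or Co, which changes the spread, Gabra3 was not called (adjusted p = 0.0814 by limma) and Gabrd was (0.0357). Gabra6 ran from −0.86 in S2 through a median of 1.68 to 2.25 in S3, and from −3.42 in So2 through 1.63 to 2.18 in So3. The lateral edge was low, and between S3 and S9 all 7 levels lay from 1.67 to 2.25. The step from s1 to s2 was 4.35 (adjusted p = 0.000428 by limma), at which 1.61% of the detected probes were called. On the right edge the mice were unlike, with −0.46 in S10 and 1.78 in So10. Outward from the middle pair s5, the linear slope of Gabra6 was −0.49 per pair (SE 0.13, adjusted p = 0.00514 by limma). Of the detected probes, 12% had a called downward slope. The Gabra6 slope came from the edge pairs, with means of −2.14 in s1 and 0.66 in s9. Inside them the means rose outward, from 1.56 in s5 to 2.21 in s2 and 2.01 in s8. Without mouse So the Gabra6 slope was −0.49 and was not called, while that of Gabra5, 0.17, was. Of the markers, 3 of 4 for granule cells and 3 of 5 for Purkinje cells had a called downward slope too, and their part was not tested.

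Gabra3 ran from −0.41 in S8 through −0.13 to 0.83 in S2, and from −0.063 in So8 through 0.20 to 0.88 in So1. Both edges of the brain were high, with pair means of 0.592 in s1 and 0.445 in s9. The lowest means were −0.237 in s7 and −0.150 in s3, and the middle pair s5 had 0.023. The linear slope of Gabra3 outward was 0.12 ± 0.031 per pair (adjusted p = 0.00566 by limma). Of the detected probes, 10.3% had a called upward slope. The second probe gave 0.14 (adjusted p = 0.0760 by limma). The variation of Gabra2 among s1 to s9 was called with the mouse as a replicate block (adjusted p = 0.0477 by limma). Leaving out So2, S6 or S10 left 1 member with a called midline-lateral slope, and leaving out mouse S none. No other member was called, with adjusted p of 0.0573 for Gabra4 and 0.0691 for Gabrd at slopes of 0.093 and 0.13. With the mouse as a replicate block, 5 members were called, Gabra4, Gabrb2 and Gabrd also upward (adjusted p = 0.0415, 0.0120 and 0.0230 by limma). With scaling to the median or in the authors' table, 7 were, all but Gabra2, and of all probes called 69.9% then rose outward against 46.2%. The midline-lateral comparison therefore depends on the scaling for the smaller slopes.

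**Figure D4:**
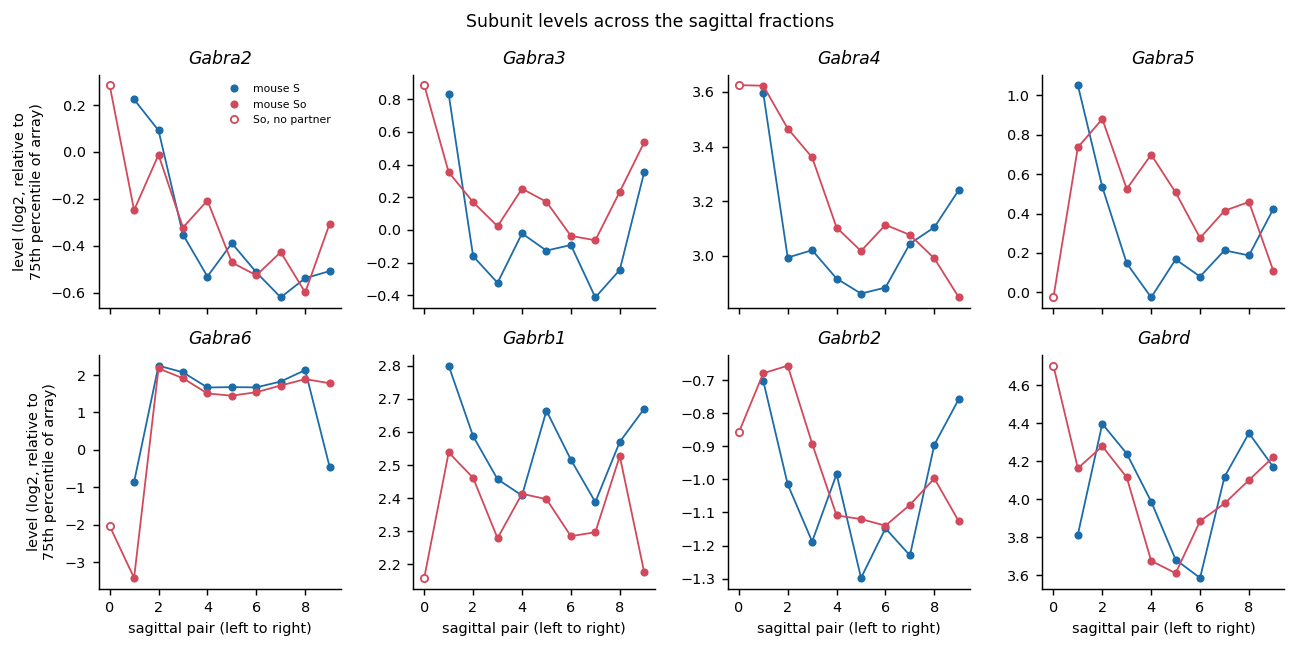
Level of each subunit (log2 relative to the 75th percentile of the array, own scale per panel) against the sagittal pair, from left to right. Blue points are mouse S, red points mouse So, and the open point is So1 without a partner. Gabra6 is low at the left edge in both mice and at the right edge in S alone, while Gabra3 is highest at the edges.

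From left to right, no member was called, where 0.509% of the detected probes were, by limma and by the ANOVA without moderation that the methods name. At an unadjusted p under 0.05 there were 4, Gabra2, Gabra4 and Gabra5 with slopes of −0.065, −0.051 and −0.064 and Gabra6 with 0.17. With the mouse as a replicate block, 2 were called, Gabra2 (adjusted p = 0.0166 by limma) and Gabra5 (0.0374). The edges were less alike in So than in S for Gabra4, which had 3.62 in So2 and 2.85 in So10 against 3.60 in S2 and 3.24 in S10. Of the few probes with a called slope 61.3% rose to the right, or 42.2% with scaling to the median.

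The levels were put in order over the 28 pair means, and neighbours in that order were set against the SD between mice. For Gabra2 none of the 27 gaps exceeded that SD, and its order from s8 at −0.57 to c13 at 0.24 has no break. Gabra3, Gabrb1, Gabrb2 and Gabrd each had 1 gap above it. For Gabra3 it separated c4, c3 and c2, up to −1.22, from the other 25 pairs, from −0.24. For Gabrb1 it separated 6 pairs, c1 to c4, c12 and c13, from the other 22, 1.76 against 2.28. For Gabrb2 and Gabrd it set pair c1 apart, at −2.18 and 2.31, from all other pairs. Gabra4 had 3 such gaps, the widest between c1 to c4 and the rest, Gabra5 had 4 and Gabra6 had 5, the widest of 1.38 between s1 and h5.

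The mice of a plane were compared with the pairs in the model. 5 of 8 members differed, where 63.1% of the detected probes did. Gabrb2 was lower in Co than in C by 0.47 (SE 0.068, adjusted p = 1.30e-06 by limma), in 12 of 13 pairs, and Gabra2 was higher by 0.26 (0.00188) and Gabrd by 0.34 (0.00483), each in 11 of 13. Between Co and C, 53.4% of the detected probes differed. Gabra2 was lower in Ho than in H by 0.42 (SE 0.10, adjusted p = 0.0112 by limma), in 6 of 6 pairs, while 5.52% of the detected probes differed in this plane. Its difference thus had opposite signs in the coronal and the horizontal plane. Gabrb1 was lower in So than in S by 0.19 (adjusted p = 0.00541 by limma), in 8 of 9 pairs, and Gabra3 higher by 0.20 (0.0300), in 8 of 9, where 29.9% of the detected probes differed. Gabra4, Gabra5 and Gabra6 were not called in any plane. The other Gabra5 probe, nearly as bright (mean signal 1891 against 1954), was called over the mice (F = 7.81, adjusted p = 0.00158 by limma). Mouse, cutting angle and slide cannot be told apart in any plane, apart from 1 slide that held S2 with So1 and So2, nor can scan day between C and Co and, but for S2, between S and So. With the slide as a random block only Gabra2 and Gabrb2 were called. Leaving out C5, Co6, C11 or Co12 left 3 of the 5. The F test of Gabra3 over the mice was lost in 42 of the 56 fits that leave out 1 array, and that of Gabrd in 6.

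The mouse difference did not change along the axis for any member at an adjusted p under 0.05, where 6.12% of the detected probes changed (limma's moderated F test). The lowest adjusted p were 0.0574 for Gabra6 and 0.125 for Gabra2, and 2 members passed an unadjusted p of 0.05 (without C13 or Co15 Gabra2 was called, and without C9, Co10, H1, Ho2, S3, So3, S9 or So9 Gabra6), with none called by the ANOVA without moderation. The correlation of the mice over the coronal pairs was 0.972 for Gabra3, 0.967 for Gabra6, 0.965 for Gabra5, 0.957 for Gabrb1, 0.941 for Gabrb2 and 0.933 for Gabra4.

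Correlations between members over the 61 fractions are given as a description, since all genes share the arrays. Among the 28 pairs of members the median r was 0.11. Gabra4 and Gabrb1 were the most alike with 0.791, followed by Gabra3 with Gabra5 (0.711) and Gabra3 with Gabra4 (0.573). Gabra3 with Gabra6 (−0.603), Gabra5 with Gabra6 (−0.546) and Gabra5 with Gabrd (−0.535) were the most opposed. In the horizontal fractions alone, Gabra3 had 0.046 with Gabra5 and −0.340 with Gabra4, and Gabra5 with Gabra6 had 0.506. Gabra3 with Gabra6 and Gabra5 with Gabrd stayed negative there, −0.550 and −0.264. The likeness of Gabra4 and Gabrb1 was that of the coronal fractions, 0.821, and it was −0.718 in the horizontal and 0.067 in the sagittal ones. Neighbours in the genome were not always alike. Gabrb2 and Gabra6, side by side on chromosome 11, had r of −0.190, and on chromosome 5 Gabra2 had 0.087 with Gabra4 and 0.064 with Gabrb1. These values depended on the plane. Gabrb2 with Gabra6 had 0.493 in the horizontal and −0.575 in the sagittal fractions, and Gabra2 with Gabra4 had −0.091 and 0.637. Gabra6 and Gabrd, partners in the receptor, had 0.289, and in the coronal fractions 0.209.

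**Figure D5:**
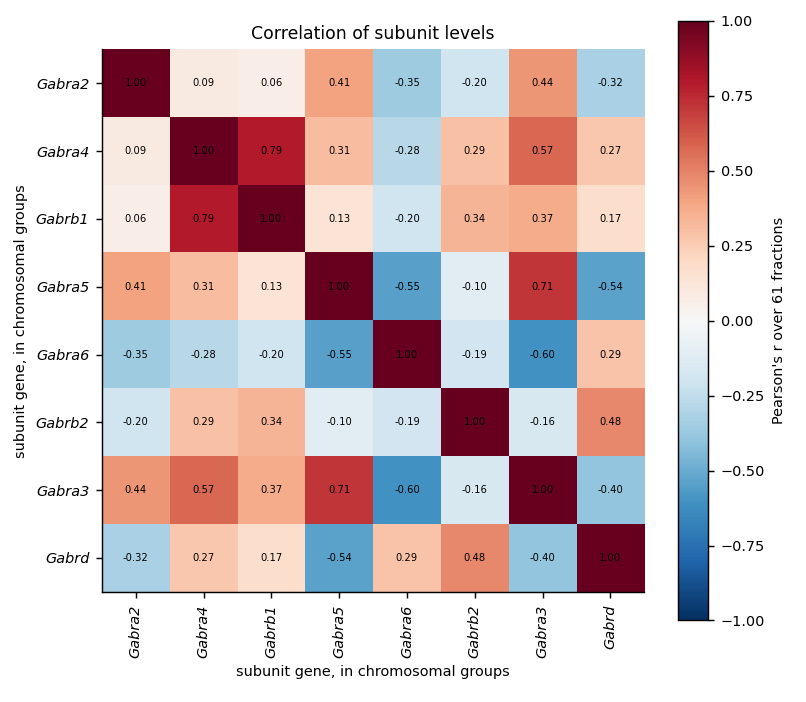
Pearson's r of the levels over the 61 fractions between the 8 members, with genes ordered by chromosome. Red is positive and blue negative. Gabra4 with Gabrb1 (0.791) is the deepest red, and Gabra6 is blue against Gabra3 (−0.603) and Gabra5 (−0.546).

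The genes with the profiles most like each member were taken from 13009 named genes that were well above background on at least 31 arrays. Crtam (r = 0.996), Cbln3 (0.993) and Pkp3 (0.987) were closest to Gabra6, and Cbln3 is itself on the granule cell list. Cyp46a1, the brain enzyme that turns cholesterol into 24-hydroxycholesterol, was closest to Gabra4 (0.925), with Pdzk1 (0.924) and Galnt18 (0.909). Unc5a (0.923), Slit1 (0.920) and Pgm2l1 (0.907) were closest to Gabrb1, and the first 2 encode a netrin receptor and an axon guidance cue. Tenm3 (0.874), Galntl6 (0.841) and Ppm1e (0.837) were closest to Gabra5. Kcnma1, a calcium-activated potassium channel, was closest to Gabrb2 (0.874), with Ankrd17 (0.852) and Gtpbp2 (0.836). Mcm5 (0.867), Camkk2 (0.831) and Tmem132a (0.795) were closest to Gabrd, and Kcnu1 (0.860), Bmp3 (0.857) and Pbx4 (0.856) to Gabra3. The matches of Gabra2 were looser, with Tenm4 (0.658), Pcdha4 (0.643) and Susd4 (0.642). For each member, r over all these genes had a median near 0, from −0.075 to 0.024, and a 99th percentile from 0.450 for Gabra2 to 0.844 for Gabra4. In the horizontal fractions alone some of these were negative, −0.171 for Unc5a and −0.341 for Pgm2l1 with Gabrb1 and −0.162 for Galnt18 with Gabra4.

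Some of the further subunit genes that passed a test along an axis are given, and others are not reported here. From dorsal to ventral, Gabrr1 fell by 0.12 per pair (SE 0.038), while Gabrg1, a γ subunit of hypothalamus and amygdala, rose by 0.27 ± 0.045. Gabrg1 also fell outward from the midline by 0.20 per pair (adjusted p = 0.00183 by limma). Gabrg3, Gabrq, Gabre and Gabrr2 passed tests as well, but were well above background on 33, 26, 27 and 8 of the 61 arrays only, so that no size is given for them. Gabrg3 was lower in the caudal pairs, Gabrg3, Gabrq and Gabrr2 were lower in c12 and c13 than in c5 to c11, and Gabrq and Gabre rose toward the ventral side.

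Of 17 tested genes that cluster receptors or carry them to the membrane, 11 varied over the pairs, a share near the 61.3% of all detected probes. Their median F was 2.46, beside 15.5 for the members and 2.58 for all detected probes. Shisa7, an auxiliary subunit of GABA-A receptors, had the largest F of the list, 58.2, and was lower in the caudal pairs by 2.85 ± 0.088 and higher toward the front and outward, by 0.28 and 0.35 per pair. Rdx, which anchors α5 receptors, had an F of 6.41 and was higher in the caudal pairs by 0.35, and Insyn1, a protein of inhibitory synapses, had 5.26 and was lower there by 0.47. Of the genes of GABA synthesis, transport and breakdown, 7 of 10 varied, also near that share. Gad1, which makes GABA, was lower in the caudal pairs by 0.40. In c12 and c13, 7 of the 10 were higher, Gad1 by 1.63 ± 0.098, where 18.5% of all detected probes were, and 7 of 10 fell outward from the midline, where 12% did. Abat, which breaks GABA down, had an F of 13.0 and rose ventrally by 0.15 per pair, and Slc38a1, a glutamine transporter, was higher in the caudal pairs by 0.68. Of the GABA-B receptor and chloride cotransporter genes, 4 of the 5 tested varied, where 61.3% of all detected probes did. Kctd8, an auxiliary subunit of the GABA-B receptor, was higher in the caudal pairs by 1.24 ± 0.071, and Slc12a2, a chloride importer, by 0.84. Kctd12 was higher in c12 and c13 by 1.78.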

How the data were processed

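Total RNA of each fraction was hybridised by the authors to 1-colour Agilent mouse arrays, 61 arrays in all. Per the file headers, the deposited intensity values are background-subtracted spot signals of Agilent Feature Extraction 9.1, not yet normalized between arrays. The authors' own table of 36558 probes holds values scaled per array, and it was used as an alternative after taking log2. All of its 61 columns could be matched to arrays.

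Control spots were left out, spots of a probe averaged (41174 probes), and the log2 signal reduced by each array's 75th percentile. Outlier-flagged spots were left out where a probe had another spot. The 36573 probes well above background on at least 1 array were tested in 56 arrays (28 pairs) with limma 3.58.1 in R 4.3.3, which had 28 residual degrees of freedom, and p-values were adjusted by the Benjamini-Hochberg method over these probes. The threshold was an adjusted p of 0.05. The methods' one-way ANOVA without moderation was an alternative. Python 3.11.15 with pandas 2.3.3 did the rest, and the fits were tested on simulated data. Precision is limited by the number of arrays, 1 mouse per series. The p-values along an axis set a change against the spread within pairs, pooled over the planes.

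The members and lists were chosen with earlier results of these data known. Named are all 8 members, other subunits that passed an axis test (some are not reported here), up to 3 genes of each further list with the largest F, and for each member the 3 genes with the highest r. The mouse pairs the arrays of a series. Deviations of arrays of the same mice had a median correlation of 0.278 over 129 combinations of pairs, of which 115 were above 0.1, and of different mice −0.026 over 249, of which 7 were. Alternatives changed the scaling, background correction, filter, probe, slide, scan day, mouse block and arrays or mice left out. Leaving out pair c1, and leaving out the 4 arrays on which the Gabra4 spot was flagged, were added after seeing the data.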

Additional observations from a re-analysis of the deposited data

Results flagged for a closer look

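In the Ho series, 1 sample lay apart for Gabrb1. The level in Ho1, the unpaired dorsal fraction, was 2.265 against 2.43 in the nearest of the other 6 fractions, a gap of 0.651 of the whole range, above the limit of 0.568 for 7 samples. Of 32 groups of 4 to 10 samples this was the only one past its limit. The limit is made for repeated samples of 1 kind, where chance passes about 1 in 20. These samples are different slices along an axis, so that this rate need not apply. Ho1 entered no test.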

How the results depend on the processing

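Numbers here are members called, of 8 unless said otherwise. Variation within the horizontal pairs (2) was 5 with scan day and 4 with slide as a random block, 0 without mouse H, and 1 without Ho, S or So. Within the sagittal pairs (2) it was 1 with the second-highest probe, slide as a random block, or without S or So. With a fixed slide block (horizontal) and without C or Co (sagittal) the count stayed at 2, but not with the same members. With slide as a fixed block the caudal-rostral slope (6) had 2 and the dorsal-ventral slope (3) had 0, and the latter had 0 without H and 1 without Ho. The midline-lateral slope (2) had 1 with the second probe, 7 with median scaling or the authors' table, 4 with probes above background on all arrays, 5 with scan day or without C or Co, and 0 without S. The left-right slope (0) had 2 with scan day. With the mouse as a replicate block, which pairs the arrays, the midline-lateral slope had 5 and the left-right slope 2, and the called counts of the other results stayed within 1.5 times. Mouse differences (5) were 2 with slide as a random block. Their change along the axis (0) was 1 with normexp, probes on all arrays or scan day. Steps (15) were 25 with slide as a random block, 6 without C and 9 without Co. For the likeness of profiles, the median r between members (0.11) was 0.1995 with median scaling and 0.2923 in the sagittal fractions. Without pair c1 the Gabrb2 slope was −0.006309. Leaving out 1 array gave 0 to 2 for horizontal variation, 1 to 2 for sagittal, 1 to 3 for midline-lateral, 3 to 5 for mice and 0 to 1 for their change. The causes were not tested. Slide and scan day as fixed blocks could not be fitted for variation over 28 pairs or mice, nor slide for the sagittal results.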
